A study of Mus musculus with 6 samples.

Results

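The genes described here are 8 genes of the amino acid response and of serine and one-carbon metabolism: the stress factor genes Atf4, Ddit3 and Nupr1 and the enzyme genes Asns, Phgdh, Psat1, Shmt2 and Mthfd2. They were taken by name, as every probe set that the array's annotation assigns to a single one of these symbols. This gave 10 probe sets for all 8 genes, of 12422 probe sets and 8251 named genes on the array. Total RNA of C2AS12 cells, mouse myoblasts that stem from the C2 line, was hybridised to 6 arrays. Every culture carried an adenovirus that encodes p300, a coactivator of transcription that acetylates histones. There were 3 treatments: doxycycline added to cells with wild-type p300, mutant p300, and wild-type p300 without doxycycline. Each was taken after 24 h in low-serum differentiation medium and at 0 h, before that medium was added, so that every group is 1 array. The submitters describe apoptotic death with doxycycline and with mutant p300, and survival with wild-type p300 alone. The labels state neither the mutation nor the action of doxycycline, and no array of uninfected cells was analysed here.

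When an amino acid runs short, uncharged transfer RNA activates the kinase GCN2 (gene Eif2ak4), which phosphorylates the translation initiation factor eIF2. Bulk translation then slows while the transcription factor ATF4 is made from its existing mRNA, so the RNA level of Atf4 alone does not report the amount of its protein. ATF4 binds C/EBP-ATF response elements and raises genes for amino acid synthesis, transport and transfer RNA charging, among them the 5 enzyme genes described here. Serine made by PHGDH and PSAT1 feeds the mitochondrial folate enzymes SHMT2 and MTHFD2, which supply one-carbon units for nucleotide synthesis in dividing cells.

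The values were array signals on a linear scale, with trimmed means that differed by 0.313% between the 6 arrays. Signals under 16.4 were set to that floor, and log2 was taken. Probe sets with a mean signal of at least 75.2 over the arrays entered the tests, 6212 in all. Of the 10 probe sets, 7 passed, each for a different gene. Phgdh and second probe sets of Asns and Mthfd2 lay under the limit. Of 10 myoblast marker genes, 9 were tested and Mef2c was below the floor on every array. Their summed signal was 3957 to 4891 on the arrays at 24 h and 2944 to 3288 on those at 0 h. Of 7 macrophage and leukocyte markers, 4 (Ptprc, Adgre1, Itgam and Lyz2) were below the floor on every array. Cd14, at 322.4 to 416.6 over the 6 arrays, and Cd68, at 103.9 to 173, were tested. The sums of the 7 were 497.1 to 592.4 at 24 h and 582.2 to 686.2 at 0 h. The sums of 4 adipocyte markers were 233.6 to 322.4 at 24 h and 205.4 to 326.9 at 0 h, and those of 5 epithelial markers 206.8 to 246.5 and 227.0 to 305.7. Retn and Epcam of these lists were below the floor on every array, while Lep, at 161 to 274.1, and Cdh1, at 142.7 to 230.8, were tested. In such bulk samples, fewer cells of a type and less RNA per cell cannot be told apart.

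**Figure D1:**
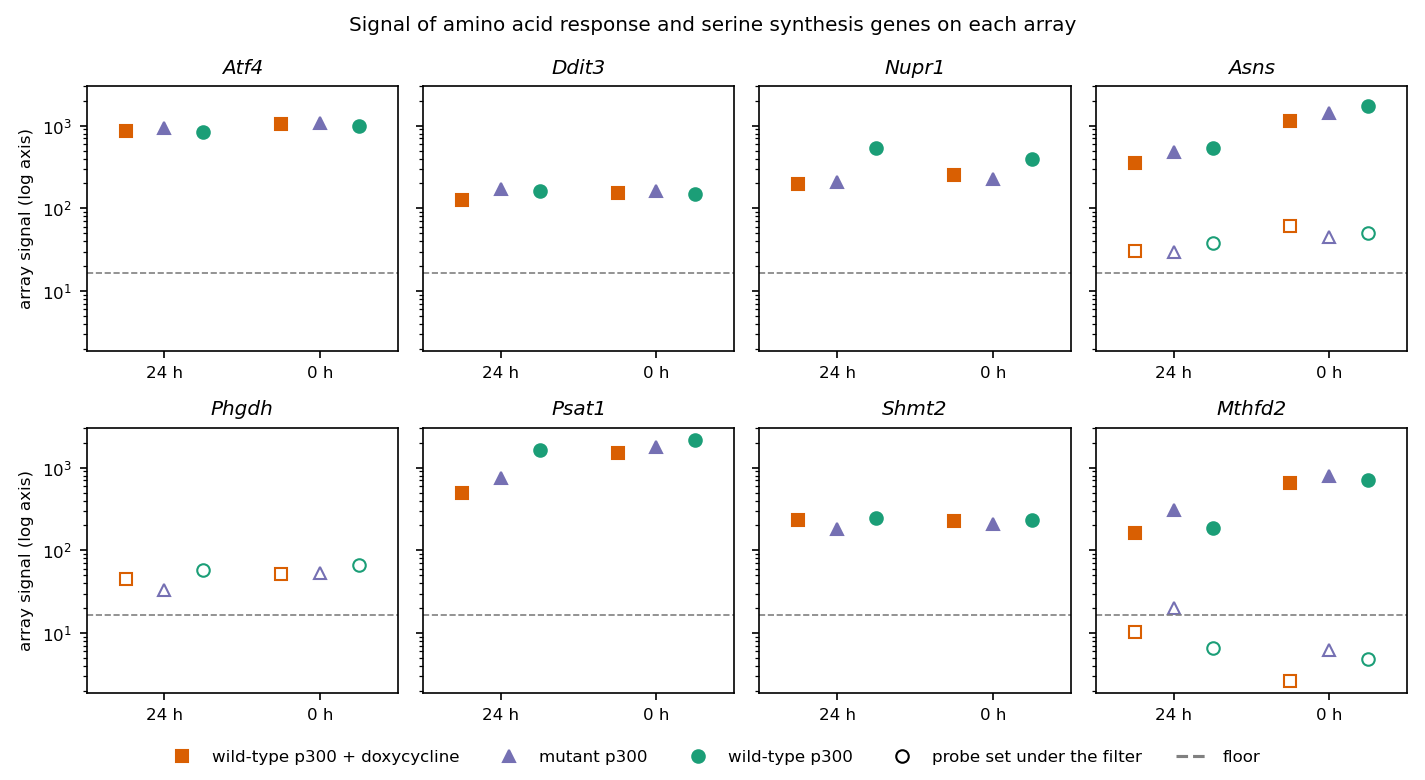
Array signal (log axis) of each of the 10 probe sets on each of the 6 arrays, at 24 h and 0 h, with doxycycline in orange, mutant p300 in violet and wild-type p300 in green. Filled symbols passed the limit on mean signal, open symbols did not, and the dashed line is the floor of 16.4. Among the filled symbols, Asns, Psat1, Mthfd2 and, by less, Atf4 were lower at 24 h in every treatment. Nupr1 was higher in both wild-type arrays, at 536.4 and 390.2, than in the other 4, at 198.1 to 250.3. The open symbols of Mthfd2 lay below the floor on 5 of the 6 arrays.

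How these genes changed in differentiation medium was read from each treatment's pair of arrays. The genes for asparagine synthetase (Asns), phosphoserine aminotransferase (Psat1) and the mitochondrial folate enzyme MTHFD2 (Mthfd2) fell in all 3 treatments. The stress factor genes Atf4, Ddit3 and Nupr1 and the serine hydroxymethyltransferase gene Shmt2 did not pass the test. Thus 3 of 7 tested members fell and 0 rose by limma at an adjusted p under 0.05, where 9.00% of the 6212 probe sets fell and 7.24% rose. All 3 arrays at 24 h lay below all 3 at 0 h for 3 of 7 members (Atf4, Asns and Mthfd2) and 15.5% of all probe sets. With Psat1, 4 of 7 were lower at 24 h in each treatment, against 25.7% of all. The median change of the 7 members was -0.25 on the log2 scale, against 0.00 over all probe sets tested. Time in culture and the change of medium cannot be told apart, since no array was taken at 24 h without it.

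Asns converts aspartate to asparagine and is a gene in which the amino acid response element was mapped. Of the 8 genes, Asns and Nupr1 were the ones whose promoter window held a match to the core of the C/EBP-ATF response element, TGATGNAA, searched on both strands. The windows run from 250 bases before to 50 after each start site of RefSeq, on the build GRCm38.p6. Both are shown 5' to 3' on the gene's strand with the match in capitals, chosen because they hold the letters searched for. The Asns window is chr6:7693160-7693459 on the minus strand, and the match lies 23 to 16 bases before the start site. The Nupr1 window is chr7:126625421-126625720 on the minus strand, with the match on the opposite strand, 110 to 103 bases before the start site.
Asns: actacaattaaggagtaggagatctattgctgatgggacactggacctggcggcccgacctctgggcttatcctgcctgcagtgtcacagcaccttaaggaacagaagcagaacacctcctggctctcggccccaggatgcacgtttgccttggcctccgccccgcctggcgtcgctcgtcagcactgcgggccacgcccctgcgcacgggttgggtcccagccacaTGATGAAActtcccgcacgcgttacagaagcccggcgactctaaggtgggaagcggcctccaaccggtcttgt
Nupr1: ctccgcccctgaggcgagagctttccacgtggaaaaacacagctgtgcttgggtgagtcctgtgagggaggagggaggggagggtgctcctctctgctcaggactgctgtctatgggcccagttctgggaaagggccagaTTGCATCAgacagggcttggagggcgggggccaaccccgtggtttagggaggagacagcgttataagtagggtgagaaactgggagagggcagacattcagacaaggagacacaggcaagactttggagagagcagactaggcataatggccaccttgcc
The core was present in 3.97% of all 32851 such windows. The 7 windows of the other 6 genes (Psat1 has 2 start sites) held no match, which says only that these letters are not in those windows. The endoplasmic reticulum stress element, CCAAT and CCACG with 9 bases between them, searched on both strands, was in 0 of the 9 windows and in 0.119% of all.

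Asns (probe set 95133_at) read 351.6 with doxycycline, 477.8 with mutant p300 and 541.6 with wild-type p300 at 24 h, against 1145, 1407 and 1746 at 0 h in the same order. All 3 arrays at 24 h lay below all 3 at 0 h. The fall was nearly the same in each treatment, to 0.307, 0.340 and 0.310 of the level at 0 h. Its log2 change was -1.65 ± 0.08 (mean of the 3 treatments; SD, n = 3; limma adjusted p = 2.05e-05), and 67 of the 6212 probe sets, itself included, were as low or lower. A second Asns probe set, of a type that can cross-hybridise within a gene family, read 30.3, 29.9 and 37.8 at 24 h (doxycycline, mutant and wild type), against 60.9, 44.9 and 50.4 at 0 h. It lay under the limit and had a change of -0.67 ± 0.30, below the first probe set's in size but also lower in every treatment. Limma without the limit gave adjusted p = 0.273 for that change.

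Mthfd2, the mitochondrial methylenetetrahydrofolate dehydrogenase, had the largest fall of the tested members. Its probe set 100046_at read 160.0 with doxycycline, 303.9 with mutant p300 and 185.5 with wild-type p300 at 24 h, against 660.1, 801.7 and 712.9 at 0 h. No array at 24 h reached any array at 0 h. Its log2 change was -1.80 ± 0.35 (SD, n = 3; limma adjusted p = 0.000102). The remaining level was 0.242 of that at 0 h with doxycycline, 0.379 with mutant p300 and 0.260 with wild-type p300. A second Mthfd2 probe set read 2.6 to 20.1, below the floor on 5 of 6 arrays, and gives no measure of the change.

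Psat1, which makes phosphoserine in the serine pathway, fell by very different amounts. Its probe set 96295_at read 499.0 with doxycycline, 754.0 with mutant p300 and 1632 with wild-type p300 at 24 h, against 1522, 1771 and 2156 at 0 h. The wild-type array at 24 h overlapped the arrays at 0 h, while the other 2 did not. The level remaining was 0.328 with doxycycline, 0.426 with mutant p300 and 0.757 with wild-type p300. The mean log2 change was -1.08 ± 0.62 (SD, n = 3; limma adjusted p = 0.00738).

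Phgdh, the first enzyme of serine synthesis, was dim. Its probe set, of a relaxed design, read 44.9 with doxycycline, 32.7 with mutant p300 and 57.6 with wild-type p300 at 24 h, against 51.8, 53.6 and 67.3 at 0 h. It was lower at 24 h in each treatment, with a change of -0.38 ± 0.29 on the log2 scale, but did not enter the main tests. Limma without the limit on mean signal gave adjusted p = 0.486. Shmt2, the mitochondrial enzyme that splits serine into glycine and a one-carbon unit, read 230.0, 180.0 and 246.6 at 24 h (doxycycline, mutant and wild type), against 226.6, 210.2 and 230.1 at 0 h. The times overlapped, and the change was -0.03 ± 0.17 (limma adjusted p = 0.888, 95% interval -0.32 to 0.25). The Shmt2 probe set too is of a type that can be less specific.

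Among the factors, Atf4 (probe set 100599_at) read 857.0 with doxycycline, 936.1 with mutant p300 and 830.8 with wild-type p300 at 24 h, against 1042, 1091 and 991.4 at 0 h. It was lower at 24 h in each treatment by a like amount, -0.25 ± 0.03 (SD, n = 3), but missed the threshold (limma adjusted p = 0.0792, unadjusted p = 0.0169). Ddit3, which encodes the stress factor CHOP that promotes cell death under lasting endoplasmic reticulum stress, read 127.0, 171.4 and 161.4 at 24 h (doxycycline, mutant and wild type), against 154.9, 160.0 and 150.4 at 0 h. These levels overlapped, and the change was -0.03 ± 0.22 (adjusted p = 0.924, interval -0.37 to 0.31). Nupr1 had a mean change of 0.00 ± 0.41 (adjusted p = 0.993), with treatments on either side of 0, as given below.

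These falls came from limma with treatment as a block, whose residual is how far the 3 treatments differ in their change. Without the limit on mean signal limma called 0 of 12422 probe sets for time (2030 at an unadjusted p under 0.05), with adjusted p = 0.0826 for Asns, 0.111 for Mthfd2 and 0.291 for Psat1, and without both mutant arrays Psat1 had adjusted p = 0.0564.

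**Figure D2:**
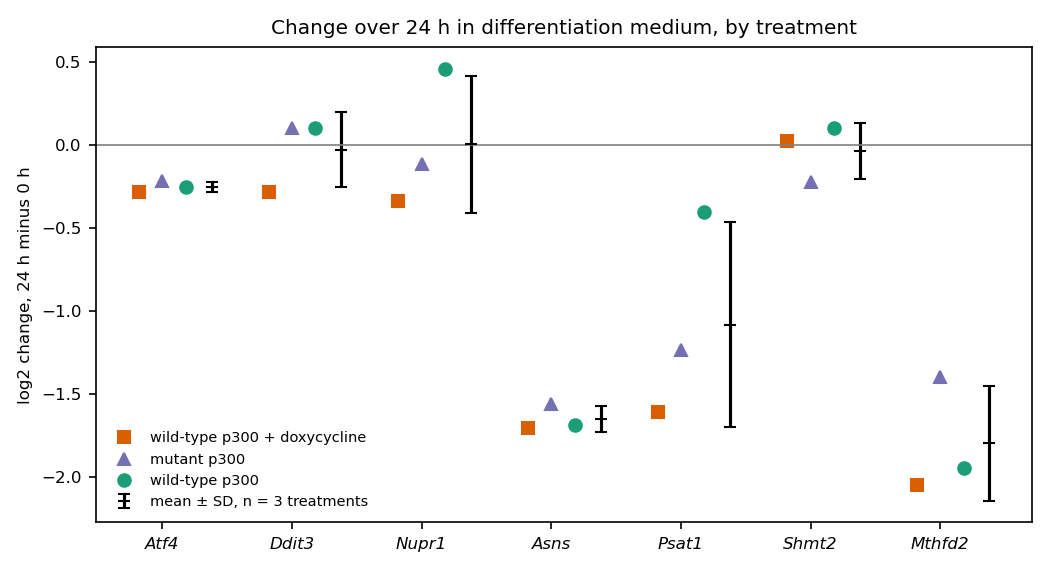
Log2 change from 0 h to 24 h of the 7 tested members in each treatment, with the mean ± SD over the 3 treatments in black. The points of Asns lie close together near -1.65, those of Psat1 run from -1.61 with doxycycline to -0.40 with wild-type p300, and Nupr1 is above 0 with wild-type p300 at 0.46 and below it in the others.

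The comparison of the doxycycline and mutant arrays with the wild-type array asked which of these genes go with the outcome. Outcome and treatment cannot be told apart, since survival was described only for wild-type p300 without doxycycline. At 24 h Psat1 and Nupr1 were lower with doxycycline and with mutant p300 than with wild-type p300. No other member passed the test at 24 h. By limma 2 of 7 tested members were lower and 0 higher, where 0.724% of all probe sets were lower and 0.0483% higher. At 0 h limma called 0 of 6212 probe sets, with 262 at an unadjusted p under 0.05, among them 1 member, Nupr1. The 2 treatments share the wild-type array of each time, and that lone array was assumed to vary like them.

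At 24 h the Psat1 values given above were 3.27-fold higher with wild-type p300 than with doxycycline and 2.16-fold higher than with mutant p300. The log2 difference of doxycycline and mutant from wild type was -1.41 ± 0.24 (limma estimate ± its standard error, adjusted p = 0.0442, 95% interval -1.96 to -0.86). Psat1 itself included, 60 of the 6212 probe sets were as low or lower in this difference. At 0 h the order of the 3 arrays was the same, with a difference of -0.39 ± 0.24 (adjusted p = 0.999). The difference at 24 h less that at 0 h was -1.02 ± 0.34 for Psat1 (interval -1.80 to -0.24, unadjusted p = 0.0162, adjusted p = 1.0), in a fit where limma called 0 of 6212 probe sets and 197 had an unadjusted p under 0.05.

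Nupr1, a small chromatin-binding stress protein gene whose product is known to bind p300, read (probe set 160108_at) 198.1 with doxycycline, 208.8 with mutant p300 and 536.4 with wild-type p300 at 24 h. At 0 h it read 250.3, 226.0 and 390.2 in the same order. Both wild-type arrays lay above the other 4, and among those 4 both arrays at 24 h lay below both at 0 h. The wild-type arrays lay above the other 4 for 7.50% of all probe sets and for 2 of 7 tested members. These were Shmt2, by only 230.1 (wild type, 0 h) against 230.0 (doxycycline, 24 h), and Nupr1. The log2 difference from wild type was -1.40 ± 0.20 at 24 h (limma estimate ± standard error, adjusted p = 0.0181) and -0.71 ± 0.20 at 0 h (adjusted p = 0.890, unadjusted p = 0.00578). The fit over both times took the arrays of a treatment as independent and gave -1.06 ± 0.17 (limma adjusted p = 0.0383). Nupr1 was the only member of 7 called there, where 0.499% of all probe sets were called lower and 0.0322% higher. The change between times in that difference was -0.68 ± 0.28 (unadjusted p = 0.0367, adjusted p = 1.0).

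Asns stood in the same order at both times, lowest with doxycycline, then mutant p300, and highest with wild-type p300. Its difference from wild type was -0.40 ± 0.22 at 24 h (limma adjusted p = 0.556) and -0.46 ± 0.22 at 0 h (adjusted p = 0.999), and neither interval excluded 0. Phgdh, under the limit on mean signal, was below the wild-type array of the same time in all 4 other arrays as well. It differed by -0.36 and -0.82 on the log2 scale at 24 h (doxycycline and mutant) and by -0.38 and -0.33 at 0 h. Limma without that limit gave a difference of -0.59 at 24 h (adjusted p = 0.763). Shmt2 was below wild type on all 4, with a difference of -0.28 ± 0.23 at 24 h (adjusted p = 0.729). In all, 4 of 7 tested members (Nupr1, Asns, Psat1 and Shmt2) were below wild type in both treatments at each time, a pattern found in 14.6% of all probe sets tested. For 2 of 7, Nupr1 and Psat1, both treatments were at least 2-fold below wild type at 24 h, against 1.30% of all.

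Atf4, Ddit3 and Mthfd2 did not share that pattern. Atf4 differed from wild type by 0.11 ± 0.16 at 24 h (limma adjusted p = 0.866, interval -0.26 to 0.48). Ddit3 differed by -0.13 ± 0.27 (adjusted p = 0.910), below wild type with doxycycline at -0.35 and above it with mutant p300 at 0.09. Mthfd2 differed by 0.25 ± 0.34 (adjusted p = 0.844), at -0.21 with doxycycline and 0.71 with mutant p300. The interval was -0.74 to 0.48 for Ddit3 and -0.51 to 1.01 for Mthfd2.

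Doxycycline and mutant p300 had 1 array each per time, so they were set side by side with no test. At 24 h the log2 difference of doxycycline from mutant was -0.93 for Mthfd2, -0.60 for Psat1, -0.44 for Asns and -0.43 for Ddit3. The same 4 genes were lower with doxycycline at 0 h too, at -0.28, -0.22, -0.30 and -0.05. Nupr1 differed by -0.08 at 24 h and 0.15 at 0 h, and Atf4 by -0.13 and -0.07. Shmt2 was higher with doxycycline at both times, at 0.35 and 0.11. Phgdh, under the limit on mean signal, differed by 0.46 at 24 h and -0.05 at 0 h.

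The calls at 24 h changed with the settings: without the limit on mean signal, with it at the 25th percentile and without a variance trend the adjusted p was 0.0655, 0.0911 and 0.0619 for Nupr1 and 0.417, 0.174 and 0.181 for Psat1, and with quantile normalization it was 0.0536 for Psat1. The call of Nupr1 over both times was lost without the mutant array of either time (adjusted p = 0.0558 and 0.0809 for 0 h and 24 h), the doxycycline array at 0 h (0.0521) or the wild-type array at 24 h (0.916), where the difference was -0.71, and with treatment as a random block (0.0620). Some other measures moved with the outcome at 24 h. The ratio of 3' to 5' actin controls, which reads RNA integrity, was 1.45 with doxycycline, 1.49 with mutant p300 and 1.33 with wild-type p300 at 24 h, and 1.30 to 1.34 at 0 h. The same ratio of the Gapdh controls did not go with the outcome, at 0.859, 0.905 and 0.875 at 24 h in that order. In the same order, 9 spike-in controls lay at 0.13, 0.23 and -0.18 on the log2 scale, set against their mean over the 6 arrays, and at -0.13 to -0.02 at 0 h. The summed signal of 5 endothelial markers was 124.0, 80.2 and 249.7 at 24 h in that order and 92.9, 68.7 and 138.9 at 0 h, with none of the 5 above the limit and Cdh5 below the floor on every array. Sums of 10 myoblast markers were 4891, 4222 and 3957 at 24 h and 3221, 2944 and 3288 at 0 h. Of the 9 tested myoblast markers, 0 were called at 24 h and 3 were below wild type in both treatments. At 24 h the sums were 269.7, 233.6 and 322.4 for adipocyte and 246.5, 226.9 and 206.8 for epithelial markers. Those of macrophage and leukocyte markers, at 592.4, 497.1 and 556.6, did not go with the outcome. The part of actin ratio and markers was not tested. Scaling to the spike-in controls moved the median difference of all probe sets at 24 h by -0.36, and the differences became -1.78 for Psat1, -1.76 for Nupr1 and -0.77 for Asns (limma adjusted p = 4.44e-05, 0.000177 and 0.0493). The difference of Asns passed the threshold under that scaling and in no other setting, while that of Atf4 turned to -0.26 and that of Mthfd2 to -0.12, neither of them called.

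**Figure D3:**
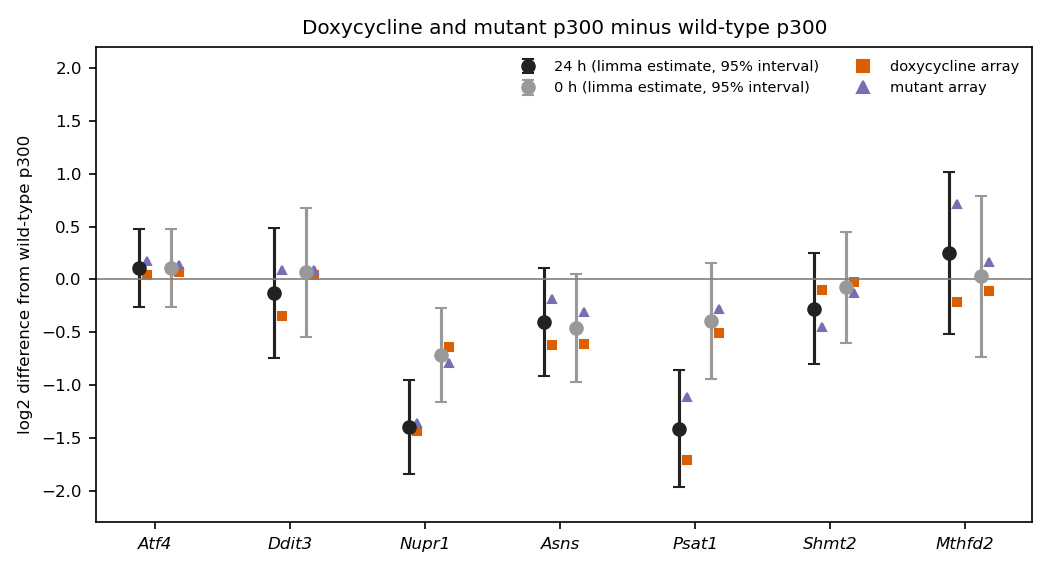
Log2 difference of the doxycycline and mutant arrays from the wild-type array for the 7 tested members at 24 h (black) and 0 h (grey). Circles and bars are the limma estimate with its 95% interval, small squares the doxycycline array and triangles the mutant array. At 24 h the intervals of Psat1 (-1.96 to -0.86) and Nupr1 (-1.85 to -0.95) lie below 0, and at 0 h that of Nupr1 does (-1.16 to -0.27).

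Upstream of ATF4, 0 of 10 tested genes of the eIF2 kinases, eIF2 and its phosphatase were called for time or for the difference at 24 h by limma. Over all probe sets 9.00% fell and 7.24% rose over time, and at 24 h 0.724% were called lower and 0.0483% higher. These are the shares to set beside this and each later list. With shares at 24 h so small, 0 calls in a list does not show that its genes were unchanged. Eif2ak4, the GCN2 sensor of uncharged transfer RNA, read 108.5 with doxycycline, 96.5 with mutant p300 and 50 with wild-type p300 at 24 h, against 100.7, 94.1 and 79.2 at 0 h. It stood highest with doxycycline at both times, and its difference at 24 h was 1.03 (limma adjusted p = 0.273). Ppp1r15a, the stress-induced subunit of the eIF2 phosphatase, read 154.7, 141.5 and 101.6 at 24 h in that order, a difference of 0.54 (adjusted p = 0.512).

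Of 14 tested ATF and C/EBP partners and other ATF4 targets, 3 fell over time, 0 rose and 11 did not pass. Over all probe sets 9.00% fell and 7.24% rose. Atf5, an ATF4-like factor, fell to 162.1, 140.7 and 125.4 at 24 h (doxycycline, mutant and wild type), against 358.5, 246.4 and 350.7 at 0 h, a change of -1.15 ± 0.34 (SD, n = 3). Hmox1, heme oxygenase, fell by 0.82 ± 0.12 on the log2 scale, and Ddit4, an inhibitor of mTORC1, fell by 0.39 ± 0.21, with limma adjusted p = 0.000769 and 0.0439. At 24 h 0 of the 14 were called by limma, where 0.724% of all probe sets were called lower and 0.0483% higher. The 2 with the largest differences were Ndrg1, at 753.2 with doxycycline and 1452 with mutant p300 against 2171 in wild type (-1.05, adjusted p = 0.324), and Atf3, a stress-induced repressor, at 80.9 with doxycycline and 134.2 with mutant p300 against 185.4 in wild type (-0.83, adjusted p = 0.495). A second Ndrg1 probe set had a difference of -0.98, and the Atf3 probe set is of a type that can cross-hybridise.

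Several genes that charge transfer RNA fell over time. Of 18 tested aminoacyl-tRNA synthetase genes 7 fell, 0 rose and 11 did not pass, and their median change was -0.34, against 0.00 over all probe sets. Vars, for valine, fell to 293.6, 403.0 and 329.7 at 24 h (doxycycline, mutant and wild type), against 610.4, 748.2 and 663.0 at 0 h, a change of -0.99 ± 0.08 (SD, n = 3). Wars fell by 0.92 ± 0.10, Gars by 0.64 ± 0.07 and Aars by 0.63 ± 0.05, each by nearly the same amount in the 3 treatments. At 24 h 0 of 18 were called by limma, with a median difference from wild type of 0.01. The largest differences were those of Farsb (90.2 with doxycycline and 91.5 with mutant p300 against 150.5 in wild type, -0.73, adjusted p = 0.364) and Hars (238.2 with doxycycline and 256.0 with mutant p300 against 182.2 in wild type, 0.44, adjusted p = 0.508).

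Of 7 tested amino acid transporter genes 1 fell over time, Slc7a5, a carrier of large neutral amino acids. It read 359.1, 447.0 and 320.1 at 24 h (doxycycline, mutant and wild type), against 594.1, 743.8 and 763.2 at 0 h, a change of -0.90 ± 0.30 (SD, n = 3; limma adjusted p = 0.00217). At 24 h 0 of 7 were called, and 5 of 7 were below wild type in both treatments, where 28.4% of all probe sets were. These included Slc6a6, the taurine transporter, at 884.0 with doxycycline and 587.0 with mutant p300 against 1518 in wild type (-1.08, adjusted p = 0.103; a second probe set -0.95), and Slc6a9, a glycine transporter, at 389.5 with doxycycline and 312.5 with mutant p300 against 694.4 in wild type (-0.99, adjusted p = 0.0852). 

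Of 9 other tested genes of serine, glycine and folate one-carbon metabolism 2 fell and 0 rose. Psph, the last enzyme of serine synthesis, which acts on the product of PSAT1, read 207.6 with doxycycline, 213.6 with mutant p300 and 207.5 with wild-type p300 at 24 h. At 0 h it read 353.9, 437.8 and 332.9 in the same order. It fell by 0.83 ± 0.18 (SD, n = 3) and, unlike the values of Psat1, those of Psph at 24 h were level across the treatments, with a difference from wild type of 0.02 (limma adjusted p = 0.986). Whether the difference of Psat1 exceeds that of Psph was not tested. Ahcy, adenosylhomocysteinase, fell by 1.15 ± 0.38, and its difference at 24 h was 0.89 (656.9 with doxycycline and 577.9 with mutant p300 against 332.3 in wild type, adjusted p = 0.129). A second probe set of Ahcy had a difference of -0.00 there. Fpgs, which retains folates in the cell, had a difference of 0.46 (adjusted p = 0.50). None of the 9 was below wild type in both treatments at 24 h, and 0 were called.

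Of 7 tested genes of proline, aspartate and glutamate metabolism 1 fell over time, Odc1, the first enzyme of polyamine synthesis, by 0.49 ± 0.17 on the log2 scale (SD, n = 3; limma adjusted p = 0.0314). At 24 h 0 were called. Odc1 read 139.7 with doxycycline, 192.0 with mutant p300 and 240.1 in wild type (difference -0.55, limma adjusted p = 0.602). Glul, glutamine synthetase, read 513.9 with doxycycline, 326.2 with mutant p300 and 652.9 in wild type (difference -0.67, limma adjusted p = 0.383). The Glul probe set, like that of Phgdh, is of a relaxed design.

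Genes of the endoplasmic reticulum stress response went both ways. Of 17 tested, 3 rose over time, 2 fell and 12 did not pass, where 7.24% of all probe sets rose and 9.00% fell. Atf6, a stress sensor, rose by 0.93 ± 0.34, Wfs1, a membrane protein of the endoplasmic reticulum, by 0.73 ± 0.25 and Dnajb9, a co-chaperone, by 0.58 ± 0.26, and Pdia6, a disulfide isomerase, fell by 0.47 ± 0.32 (SD, n = 3 each). The other gene that fell was Pdia3, by 0.41 ± 0.16, named after its value was seen. At 24 h 0 of 17 were called. Wfs1 had a difference of -0.64 (581.6 with doxycycline and 575.9 with mutant p300 against 899.6 in wild type, limma adjusted p = 0.241) and Sel1l one of 0.58 (296.0 with doxycycline and 265.4 with mutant p300 against 187.9 in wild type, adjusted p = 0.305).

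Cell division genes moved with the falls over time. Of 18 tested S phase genes 16 fell and 0 rose, with a median change of -1.55. Their part in the falls of Asns, Mthfd2 and Psat1 was not tested. At 24 h 1 S phase gene, Cdt1, a replication licensing factor named after its value was seen, was called lower (233.3 with doxycycline and 207.0 with mutant p300 against 588.9 in wild type) and 0 higher, and the median difference from wild type was 0.09. Scaling to the spike-in controls moved the median time change of all probe sets by -0.12. The counts of genes that fell then became 6 of 18 for synthetases, 2 of 14 for ATF4 partners and targets, 1 of 17 for endoplasmic reticulum genes and 17 of 18 for S phase, and 2 of 17 endoplasmic reticulum genes rose. At 24 h that scaling called lower 4 of 7 transporters, 2 of 17 endoplasmic reticulum genes, 2 of 18 S phase genes and 1 each of the ATF4 partners and targets and the proline list. It also turned the median difference at 24 h to -0.36 for synthetases and -0.28 for S phase. Quantile normalization gave the counts first named for all of these lists.

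**Figure D4:**
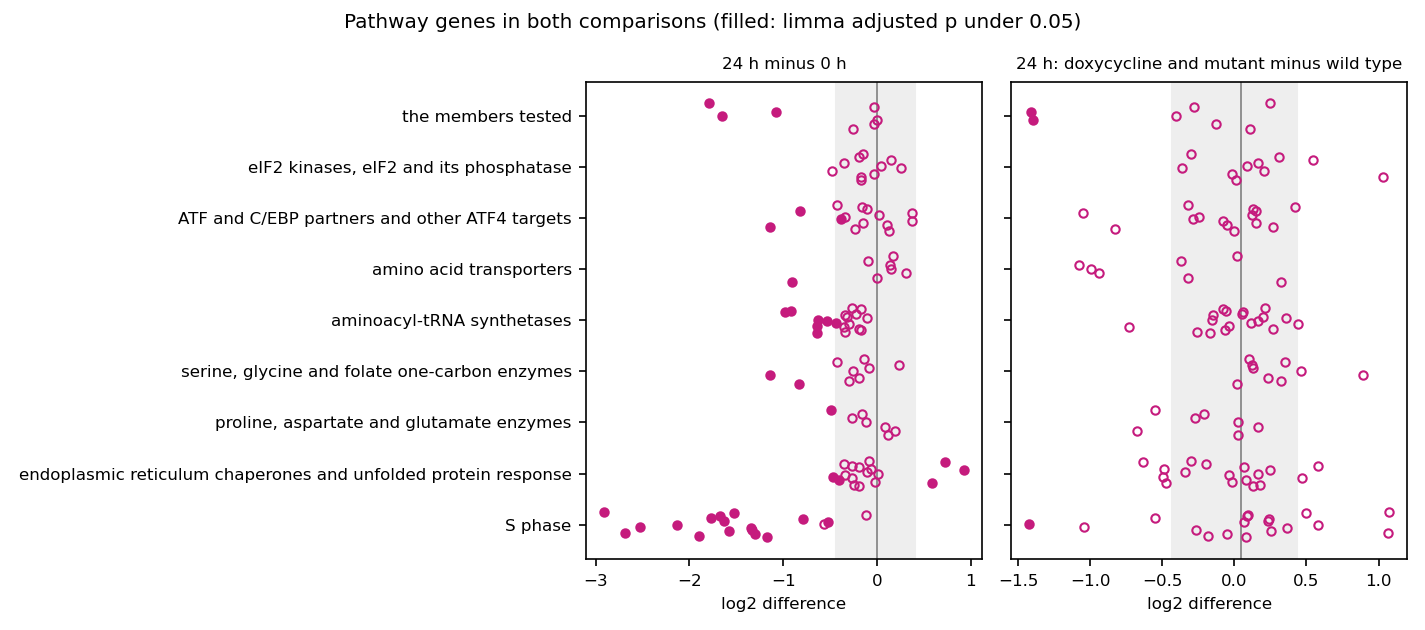
Log2 change over time (left) and log2 difference of doxycycline and mutant from wild type at 24 h (right), with a point for each tested gene of the members, the 7 pathway lists and the S phase list. Filled points passed limma's adjusted p of 0.05, the grey band holds the 10th to 90th percentile of all 6212 probe sets and the line is their median. On the left, 3 members and 16 S phase genes are filled below the band, and on the right the filled points are Psat1, Nupr1 and the S phase gene Cdt1.

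Pearson's r on log2 signals, as a description over 6 arrays that share the step between the times, was 0.94 between Asns and Mthfd2, 0.96 between Atf4 and Mthfd2, 0.82 between Atf4 and Asns and 0.86 between Asns and Psat1. Nupr1 had r = 0.64 with Psat1 and 0.21 with Asns. Ddit3 had no r above 0.47 with any member, and the highest of Shmt2 was 0.63, with Nupr1. Among 4815 other genes tested, those closest to Asns were Gclm, the modifier subunit of the glutathione synthesis enzyme (r = 0.998), Adssl1 (0.993), Ghitm (0.992), Prdx3 (0.990) and Pno1 (0.989), and 4.84% of the genes had r above 0.9. Those closest to Ddit3 were Srp9 (0.981), S100a13 (0.978), Ap3m1 (0.976), Drg1 (0.971) and Capza2 (0.971). For Ddit3, 0.685% of the genes had r above 0.9. Over the 6 arrays the 5 genes closest to Asns spanned 0.43 to 1.83 on the log2 scale, and the 5 closest to Ddit3 spanned 0.26 to 0.57.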

How the data were processed

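The deposited values are linear signal intensities of 12488 probe sets, made with MAS5 per the submitters' processing notes, with version and settings not given in the sources used here. Array means differed by 0.313% and were left unscaled. Without 66 control probe sets, 12422 remained: 10833 with 1 symbol in the array's annotation, 396 with several and 1193 with none. List symbols were updated through RefSeq (GRCm38.p6), and a list gene was represented by its brightest tested probe set. After the floor (25th percentile) and log2, probe sets whose mean signal reached the median entered limma 3.58.1 (R 4.3.3, variance trend, two-sided), with Benjamini-Hochberg adjustment over all of them. The time fit had treatment as a block (2 residual degrees of freedom), the fit over both times had time as a term (3), and the outcomes at 24 h and 0 h and their interaction shared another fit (2). The fits were also run on simulated data with independent noise, drawn with the same spread on every array. That simulation could not check whether the lone wild-type array varies like the others or whether arrays of a treatment are independent.

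The submitters speak of biological replicates, but no 2 arrays share treatment and time and no label says whether cultures were pooled. The p-values therefore reflect only the spread between these 6 arrays, whose number limits the precision. Alternatives were other floors, filters, scalings and variance priors, averaged probe sets, a random block and arrays left out. The members and all lists were chosen with earlier results of these data known. By rule, each list's 4 largest called time changes and 2 largest differences at 24 h were named, and the 5 genes closest to Asns and to Ddit3 by Pearson's r.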

Additional observations from a re-analysis of the deposited data

Results flagged for a closer look

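Nupr1 changed downward with doxycycline and with mutant p300 and upward with wild-type p300. Over 24 h its log2 signal changed by -0.34 with doxycycline and by -0.11 with mutant p300, and by 0.46 with wild-type p300. Each value is the difference of a pair of arrays. In the test of the difference itself limma gave an unadjusted p of 0.0367 and an adjusted p of 1.0.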

How the results depend on the processing

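The number of probe sets called varied with the settings. For time it was 1009, against 0 without the limit on mean signal (limma, 2030 of 12422 at an unadjusted p under 0.05), 619 with spike-in scaling and 470 to 1275 with 1 treatment left out (470 without mutant, 1275 without wild type). For the outcome over both times it was 33, against 10 without the limit, 237 with spike-in scaling, 1 without a variance trend, 14 with the random block and 0 to 50 with 1 array left out (0 without the wild-type array at 24 h). At 24 h it was 48, against 192 without the limit, 0 with it at the 25th percentile (902 at an unadjusted p under 0.05), 426 with spike-in scaling (6 higher, 420 lower), 11 without a trend and 45 to 351 with 1 array left out (351 without the mutant array at 24 h). At 0 h it was 0, against 126 without the limit, 5 with spike-in scaling and 0 to 38 with 1 array left out. For the interaction it was 0, against 245, 1 and 6 to 43 in that order. The causes were not tested.

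No member turned direction in a comparison in which it was called. Among the other values some did. With spike-in scaling they were Nupr1 over time (-0.12), Atf4 and Mthfd2 over both times (-0.053 and -0.020) and at 24 h (-0.26 and -0.12), and Atf4, Asns and Mthfd2 in the interaction (-0.41, -0.35 and -0.19). With arrays left out, time changes ran from -0.23 to 0.17 for Nupr1, -0.094 to 0.10 for Ddit3 and -0.10 to 0.061 for Shmt2. Over both times Ddit3 ran from -0.13 to 0.075 and Mthfd2 from -0.075 to 0.32. At 24 h Ddit3 ran from -0.35 to 0.087 and Mthfd2 from -0.21 to 0.71, and at 0 h Mthfd2 from -0.11 to 0.17. In the interaction the ranges were -0.060 to 0.067 for Atf4, -0.16 to 0.28 for Asns, -0.41 to 0.021 for Ddit3 and -0.24 to 0.68 for Mthfd2. Without the mutant array at 24 h the interaction of Psat1 was called (-1.32, adjusted p = 0.00997). Psat1 was called over both times with spike-in scaling (-1.06, 3.04e-06) and without the wild-type array at 0 h (-1.41, 0.0444), and the call of Nupr1 there was lost without the limit (0.364) and without a variance trend (0.111).

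The time comparison was paired by treatment. No pairing by replicate number was possible because the labels give no replicate numbers and each treatment and time has 1 array.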
